A study of Helianthus annuus with 15 samples.

Results

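Gene expression in the stem of sunflower (Helianthus annuus) was set against that in the leaf, with 3 mRNA sequencing libraries from stem and 3 from leaf, 6 of the 15 libraries of the series. The other 9 libraries come from root, flower and axil, the angle between leaf and stem where side shoots start. The genes compared are those with at least 1 FPKM (fragments per kilobase of gene, scaled to the reads of the library) in 3 or more of the 15 libraries, 34586 of the 63411 identifiers in the table. The labels give the tissue of each library and no cultivar, age, growth condition or treatment, and they do not tell separate plants from repeated preparations, so p-values measure the spread among the libraries at hand, and that spread may be technical.

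The stem holds the plant up and carries water in the xylem and sugars in the phloem, and much of its tissue consists of cells with thick, lignified walls. The leaf blade is mostly photosynthetic tissue, and in plants generally the mRNAs for light-harvesting proteins and for the enzymes of carbon fixation are among the most abundant in leaves. The table pairs 1 of its identifiers with a gene name, and 0 matched the reference gene table, so such genes cannot be pointed out by name here, and the tissue labels could not be checked against marker genes. Genes are therefore described by their identifiers, levels, lengths and position in the numbering of the chromosomes.

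The 6 libraries held between 12275192 and 14654252 reads, as solved from how FPKM values step up. In a gene 1000 nt long, 3 reads equal 0.205 to 0.244 FPKM, a limit that covers counting error only. Across the genes tested, Pearson correlations of log2(FPKM + 1) were 0.929 to 0.960 between stem libraries, 0.914 to 0.964 between leaf libraries and 0.719 to 0.786 between a stem and a leaf library. Genes, the points of these correlations, are no independent replicates. Leaf 2 stood apart from the other leaf libraries, with correlations of 0.914 and 0.916 to them, against 0.964 between Leaf 1 and Leaf 3. It also had reads on 40179 identifiers, against 38109 in Leaf 1 and 38872 in Leaf 3. Results that rest on Leaf 2 are given with and without it.

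More genes were called higher in stem than lower. A gene was called when the Benjamini-Hochberg adjusted p of limma was under 0.05 and the log2 difference of stem minus leaf, on the log2(FPKM + 1) scale, was at least 1 in size. That scale understates the change of genes at low levels. Of the 34586 genes tested, 8498 (24.6%) were called, 5035 (14.6%) higher in stem and 3463 (10%) lower in stem. In whole tissue, fewer cells of a type and less RNA per cell cannot be told apart. Without Leaf 2 the counts were 5522 higher and 3466 lower. The 3 stem values lay above or below the 3 leaf values without overlap for 4808 of the called higher genes and 3345 of the called lower ones, where 48.0% of all genes tested showed no overlap, 29.2% with stem higher and 18.8% with stem lower. The median size of the log2 difference was 1.66 among genes higher in stem and 1.71 among genes lower in stem. Differences of at least 3 were found for 608 genes higher and 509 lower, and of at least 5 for 78 and 57. For 16455 genes (47.6%) the 95% interval of the difference lay between -1 and 1, and 9633 were neither called nor bounded in that way.

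The balance between the directions depended in part on how libraries were scaled to one another. As deposited, the median log2 difference over all genes tested was 0.10 and 59.2% of called genes were higher in stem. Median-of-ratios scaling moved the median of all genes by -0.106 and the share to 51.3%, and quantile normalization moved them by -0.104 and to 51.4%. Against that shift, the numbers of genes higher and lower in stem were close to equal.

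**Figure D1:**
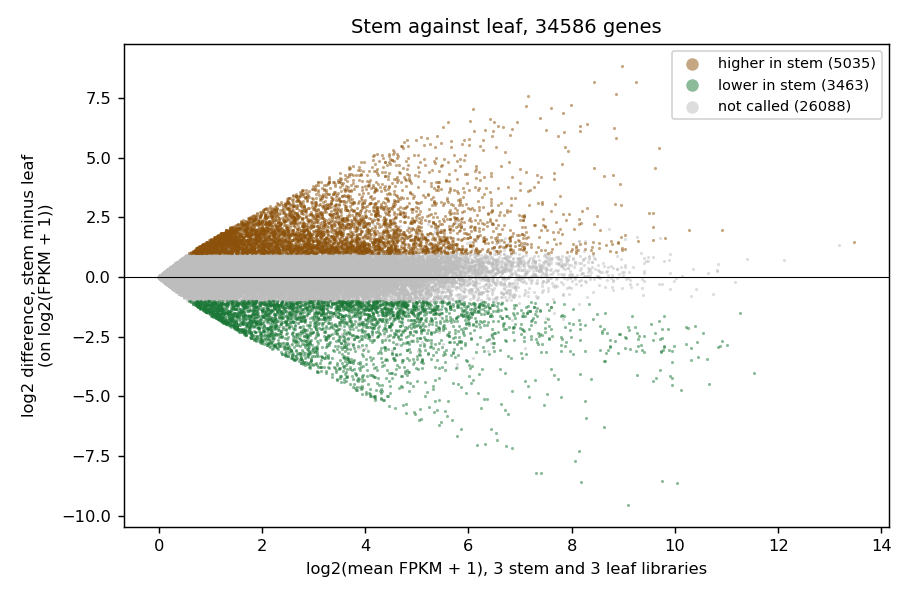
Log2 difference of stem minus leaf (vertical axis, log2(FPKM + 1) scale) against the log2 mean level over the 6 libraries (horizontal axis) for the 34586 genes tested, 1 point per gene. The 5035 genes called higher in stem and the 3463 called lower are coloured, and at the right-hand end of the axis most coloured points lie below 0.

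The direction of the difference changed with the level of the gene. Most genes were expressed at low or moderate levels, and there genes higher in stem outnumbered those lower. Among the most abundant genes the order turned round. Of genes with a mean of 10 to 50 FPKM in the higher tissue, 1902 (18%) were higher in stem and 1344 (12.7%) lower. At 100 to 500 FPKM the counts were 298 (25.3%) and 262 (22.3%), and at 500 to 1000 FPKM 35 (31.0%) and 37 (32.7%). Of the 88 genes that averaged 1000 FPKM or more in stem or leaf, 12 (13.6%) were higher in stem, 55 (62.5%) were lower and 21 were not called. The stem and leaf libraries did not overlap for any of these 67 called genes. That also held for 4808 of the 5035 genes called higher at any level, 3345 of the 3463 called lower and 48.0% of all genes tested.

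Recounted for the same 88 genes, 10 to 19 were called higher and 54 or 55 lower. These recounts covered the scalings, pseudocounts and read model tried and the removal of each stem or leaf library. They did not cover a fit on only the stem and leaf libraries, in which some of the most abundant genes named below lost their call. Without Leaf 2 the counts were 10 and 55. The counts depended on the tissues used to sort genes by level. Sorted by the mean of the 6 libraries, 17 of the 132 genes at 500 FPKM or more were higher in stem and 63 lower. Sorted by the mean of all 15 libraries, 81 genes reached 500 FPKM, with 13 higher in stem and 23 lower, and of the 23 that reached 1000 FPKM, 4 were higher and 4 lower.

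**Figure D2:**
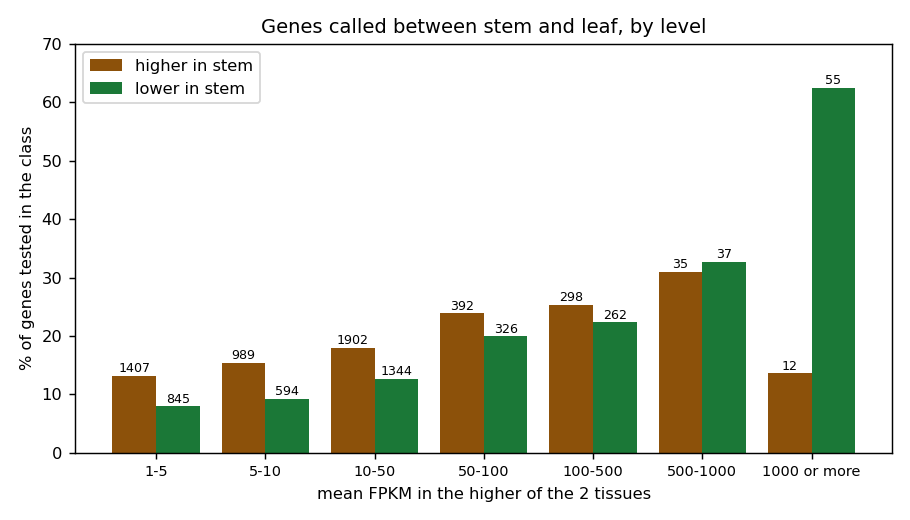
Share of tested genes called higher (brown) or lower (green) in stem, in classes of the mean FPKM in the higher of the 2 tissues, with the number of genes above each bar. The 3959 genes under 1 FPKM in both tissues held 0 calls and are not drawn. In the last class, 55 genes were lower in stem and 12 higher.

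The concentration of reads differed in the same direction. It was taken from the abundant genes of the same 6 libraries, so it is no independent result. The 100 genes with the most reads took 13.3%, 15.9% and 14.5% of the reads in Stem 1, 2 and 3, against 17.1%, 19.1% and 18.5% in Leaf 1, 2 and 3. All 3 stem shares lay below all 3 leaf shares, and the exact two-sided permutation test gave p = 0.1, the smallest that 3 against 3 allows. The number of genes at 1000 FPKM or more was 24, 36 and 31 in the stem libraries and 59, 74 and 72 in the leaf libraries. The 10 genes with the most reads took 4.42%, 5.69% and 4.73% in the stem libraries and 4.14%, 4.09% and 4.55% in the leaf libraries, which overlap. The single highest gene reached 15923 to 17408 FPKM in stem, against 5635 to 7561 FPKM in leaf.

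The 55 abundant genes lower in stem were described further by their ratios and their levels in the other tissues. Their leaf mean exceeded their stem mean by a median of 7.62 times, with quartiles of 5.77 and 11.5, and for 40 of the 55 the ratio lay between 5 and 20. Their median level was 207 FPKM in stem and 1564 FPKM in leaf, so most remained well expressed in stem. The other tissues entered the filter and the fit but not the difference itself, and there the median of the 55 was 279 FPKM in flower, 135 FPKM in axil and 0.924 FPKM in root. In root, 48 of the 55 had a mean under 10 FPKM. Over all genes tested, the root median was 4.85 FPKM with an upper quartile of 14.1 FPKM, so root means under 10 FPKM are common. Single genes departed widely from these medians, with means of 0.0220 to 1135 FPKM in root, 2.33 to 976 FPKM in flower and 2.17 to 1636 FPKM in axil. For the 12 abundant genes higher in stem, the stem mean exceeded the leaf mean by a median of 4.32 times, with quartiles of 3.59 and 26.8, and their root means ran from 0 to 1828 FPKM, with 2 of the 12 under 10 FPKM.

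**Figure D3:**
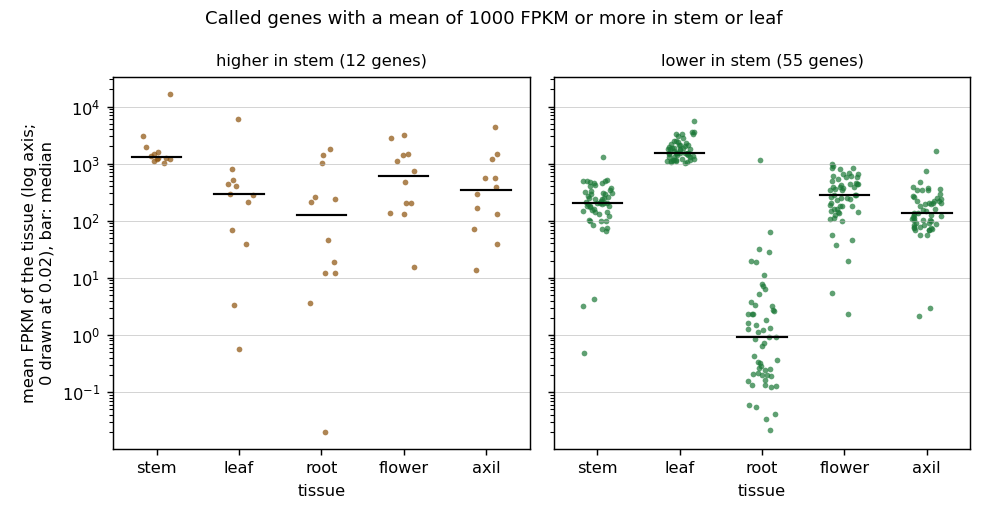
Mean FPKM per tissue (log axis) of the called genes with at least 1000 FPKM in stem or leaf, 1 point per gene and tissue, with the median as a bar. The 12 genes higher in stem are on the left and the 55 lower in stem on the right, where the median falls to 0.924 FPKM in root.

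The most abundant genes of each direction were the following. HannXRQ_Chr06g0168151 on chromosome 6 had 305, 367 and 343 FPKM in Stem 1, 2 and 3, against 4739, 6792 and 5151 FPKM in Leaf 1, 2 and 3. Every stem value was far below every leaf value, and the log2 difference was -4.02 ± 0.26 (SE; limma adjusted p = 1.29e-07). Its mean was 0.832 FPKM in root and 824 FPKM in flower. HannXRQ_Chr17g0564341 on chromosome 17 had 954, 1409 and 1495 FPKM in the stem libraries and 3099, 4142 and 3597 FPKM in the leaf libraries, a log2 difference of -1.51 with an SE of 0.38 (adjusted p = 0.00649 by limma). This smaller difference was also free of overlap, but its call was lost when only the stem and leaf libraries entered the fit (limma adjusted p = 0.195).

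In the other direction, HannXRQ_Chr08g0235781 on chromosome 8 was the most abundant gene in all 3 stem libraries, with 15923, 17408 and 16291 FPKM there and 5635, 5115 and 7561 FPKM in the leaf libraries. It was also abundant in leaf, and its log2 difference of 1.46 ± 0.50 (SE) passed narrowly (limma adjusted p = 0.0327). The call was lost in 10 of 18 alternatives, among them the removal of any stem library or of Leaf 1 or Leaf 2, with limma adjusted p from 0.00518 to 0.757 over the 18. With quantile normalization the log2 difference was 0.29. HannXRQ_Chr14g0461541 on chromosome 14 had 2782, 3113 and 3158 FPKM in the stem libraries and 536, 648 and 1241 FPKM in the leaf libraries. Its log2 difference was 1.99 ± 0.40 (SE; limma adjusted p = 0.00135), and it was also abundant in root and flower, with means of 1828 and 3224 FPKM. The call was lost with only the 6 libraries in the fit (limma adjusted p = 0.0634).

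The genes with the largest differences were abundant in one tissue and had 6.40 FPKM or less in each library of the other. HannXRQ_Chr15g0463511 on chromosome 15 had 421, 301 and 2307 FPKM in Stem 1, 2 and 3 and 0, 1.51 and 0.180 FPKM in Leaf 1, 2 and 3. Every stem value was far above every leaf value, but Stem 3 alone raised the stem mean, which was 1009 ± 1125 FPKM (SD, n = 3) with it and 361 FPKM without it. The leaf mean was 0.564 ± 0.826 FPKM (SD, n = 3), and 0.0901 FPKM without Leaf 2. The log2 difference was 8.85 ± 0.63 (SE; limma adjusted p = 2.9e-07). HannXRQ_Chr01g0006791 on chromosome 1 had 784, 1898 and 931 FPKM in the stem libraries and 1.05, 5.81 and 3.01 FPKM in the leaf libraries, with a log2 difference of 8.19 with an SE of 0.71 (adjusted p = 1.51e-06 by limma). Its leaf mean was 3.29 FPKM, and 2.03 FPKM without Leaf 2. The flower means of these genes were 131 and 138 FPKM, and their root means 0 and 12.1 FPKM.

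In the opposite direction, HannXRQ_Chr09g0241741 on chromosome 9 had 0.862, 0.142 and 0.427 FPKM in Stem 1, 2 and 3, against 931, 1099 and 1238 FPKM in Leaf 1, 2 and 3. The stem values rest on 11 reads in all, against 25288 in leaf, and the log2 difference was -9.55 ± 0.57 (SE; limma adjusted p = 6.71e-08). Without Stem 1 its stem mean of 0.477 FPKM was 0.284 FPKM. It was also abundant in root, with a mean of 1135 FPKM, and was the only one of the 55 abundant genes lower in stem whose root mean exceeded both its flower and its axil mean. HannXRQ_Chr11g0325011 on chromosome 11 had 4.18, 2.30 and 6.40 FPKM in the stem libraries and 1558, 3142 and 1595 FPKM in the leaf libraries, a log2 difference of -8.63 with an SE of 0.39 (adjusted p = 8.01e-09 by limma). It was low outside leaf in every tissue but flower, where its mean was 56.0 FPKM.

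**Figure D4:**
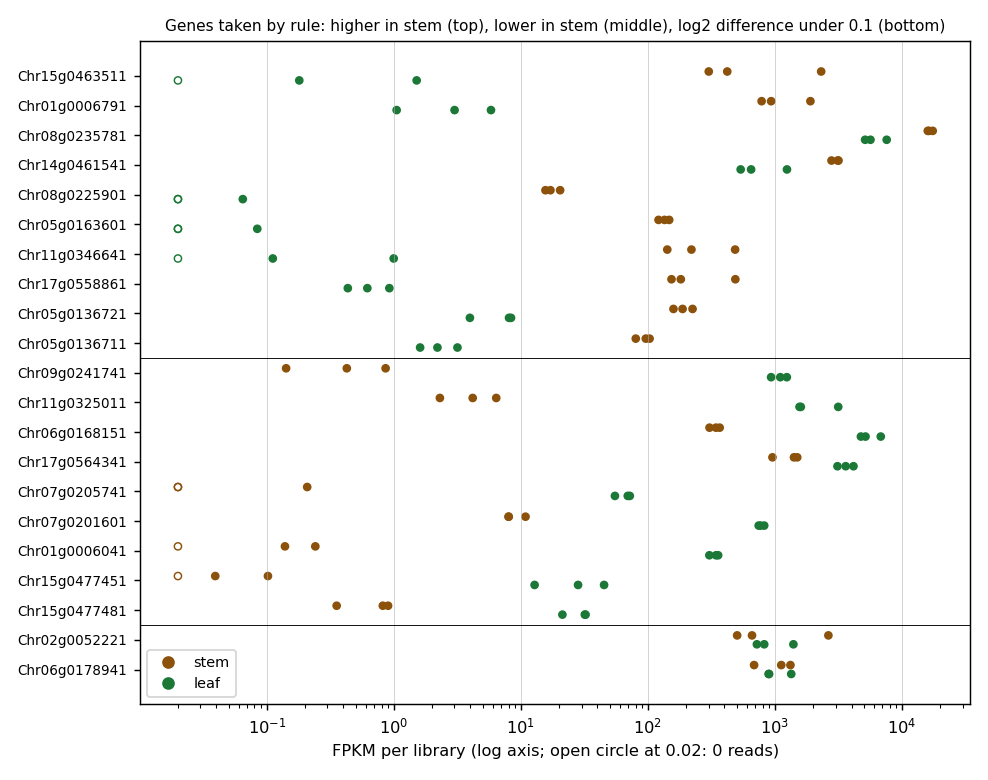
FPKM in each stem (brown) and leaf (green) library, on a log axis, of identifiers taken by a fixed rule, 1 row per gene and 3 points per tissue. Open circles stand for 0 reads. For the 10 genes in the top block the stem points lie to the right of the leaf points, for the 9 in the middle block to the left, and for the last 2 the tissues overlap.

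The genes with the largest test statistics had replicates that lay close together, which choosing by that statistic favours. HannXRQ_Chr05g0163601 on chromosome 5 had 147, 135 and 121 FPKM in the stem libraries and 0, 0.0842 and 0 FPKM in the leaf libraries, the middle value being 2 reads. Its log2 difference was 7.04 ± 0.24 (SE; limma adjusted p = 9.27e-10), and it was at 32.2 FPKM in axil. HannXRQ_Chr08g0225901 on chromosome 8 had 20.4, 15.6 and 17.1 FPKM in the stem libraries and a single read in the leaf libraries, in Leaf 2, with a log2 difference of 4.19 with an SE of 0.14 (adjusted p = 9.27e-10 by limma). Its flower mean of 36.1 FPKM exceeded its stem mean of 17.7 FPKM.

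Among genes lower in stem, HannXRQ_Chr07g0205741 on chromosome 7 had 0.208, 0 and 0 FPKM in the stem libraries, 2 reads in all, and 71.9, 69.3 and 55.0 FPKM in the leaf libraries. Its log2 difference was -5.95 ± 0.15 (SE; limma adjusted p = 1.68e-10), and it had 0 FPKM in the root and axil means. HannXRQ_Chr07g0201601, also on chromosome 7, had 8.0, 10.9 and 8.02 FPKM in the stem libraries and 769, 822 and 743 FPKM in the leaf libraries. Here the leaf replicates spread by 40.0 FPKM (SD, n = 3) around 778 FPKM, and the log2 difference was -6.30 ± 0.18 (SE; limma adjusted p = 3.75e-10).

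Genes expressed in one of these tissues and nearly silent in the other were counted over all identifiers listed. A mean of at least 10 FPKM in stem with under 1 FPKM in each leaf library was found for 224 genes, and the mirror pattern, high in leaf and under 1 FPKM in each stem library, for 276. Of those in the tested set, 221 of 223 were called higher in stem and 245 of 258 lower, against 14.6% and 10% of all genes tested, but the limits on level that chose these genes nearly fix the call. The limit of 10 FPKM applies to a mean, which a single high library can carry, and 258 of the 276 met the filter of the tested set. In 25 of the 224 not a single leaf read was recovered, and in 45 of the 276 not a single stem read. These genes were mostly moderate in level, with a median of 16.8 FPKM in stem for the first set and 19.5 FPKM in leaf for the second. Of the 224, 154 averaged 1 FPKM or more in flower, 138 in axil and 100 in root, and 27 in none of these. Of the 276, 88 reached that level in flower, 124 in axil and 121 in root, and 68 in none. Over all genes tested, the lower quartile was already above 1 FPKM, at 1.45 FPKM in flower, 1.55 FPKM in axil and 1.34 FPKM in root. In each of these tissues, a smaller share of either set reached 1 FPKM than of all genes tested. All genes tested had passed the filter of 1 FPKM in 3 libraries. These sets hold some untested genes and were chosen to be low in stem or leaf, which may by itself lower the shares.

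Which set was larger rested on Leaf 2. Without that library, 400 genes were high in stem and under 1 FPKM in each remaining leaf library, and 208 showed the mirror pattern. Leaving out Leaf 1 gave 228 and 284, leaving out Leaf 3 gave 252 and 296, and leaving out a stem library gave 206 to 241 and 302 to 326. The 176 genes that only Leaf 2 kept out had a median of 2.47 FPKM in Leaf 2 and 0.498 FPKM in the mean of Leaf 1 and Leaf 3, against 18.5 FPKM in stem. The rule that chose these genes fixes that Leaf 2 exceeds Leaf 1 and Leaf 3 in them. In these genes Leaf 2 stood at a median of 11.8% of the stem mean, with quartiles of 6.92% and 24.5%. They were also expressed in flower, with a median of 13.2 FPKM, and less in axil (2.30 FPKM) and root (1.41 FPKM). Under the same rule, Leaf 1 stood at a median of 11.1% of the stem mean in the 4 genes that only Leaf 1 kept out. Leaf 3 stood at 9.32% in the 28 genes that only Leaf 3 kept out.

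The most abundant genes of the first set were HannXRQ_Chr11g0346641 and HannXRQ_Chr17g0558861. HannXRQ_Chr11g0346641 on chromosome 11 had 142, 220 and 485 FPKM in the stem libraries, against 0, 0.112 and 0.998 FPKM in the leaf libraries, with a log2 difference of 7.57 with an SE of 0.63 (adjusted p = 1.03e-06 by limma). It was close to the limit of 1 FPKM in Leaf 3, and its means were 181 FPKM in stem without Stem 3 and 0.0558 FPKM in leaf without Leaf 3. HannXRQ_Chr17g0558861 on chromosome 17 had 153, 181 and 487 FPKM in the stem libraries and 0.434, 0.619 and 0.922 FPKM in the leaf libraries (log2 difference 7.18 ± 0.50, SE; limma adjusted p = 2.48e-07), with a stem mean of 167 FPKM without Stem 3 and an axil mean of 142 FPKM. In both genes Stem 3 was the highest stem library.

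The most abundant gene of the mirror set was HannXRQ_Chr09g0241741, described above for its difference. The next was HannXRQ_Chr01g0006041 on chromosome 1, with 0.241, 0.139 and 0 FPKM in the stem libraries, 3 reads in all, and 343, 357 and 304 FPKM in the leaf libraries. The leaf replicates of this gene lay close together, and the log2 difference was -8.22 ± 0.24 (SE; limma adjusted p = 3.75e-10). Its mean did not exceed 3.19 FPKM in axil, 0.515 FPKM in flower and 0 FPKM in root.

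Root, flower and axil were then used to place the called genes. Over the 5035 genes higher in stem, the median of the tissue means was 10.8 FPKM in stem and 1.81 FPKM in leaf, and 2.97 FPKM in root, 6.58 FPKM in flower and 4.12 FPKM in axil. Flower was nearer to stem than to leaf on the log2 scale for 58.8% of these genes, axil for 35.4% and root for 31.7%. Over all genes tested the same shares were 59.3% for flower, 48.6% for axil and 47.9% for root. So for genes higher in stem, flower sat about where it sits over all genes, and axil and root sat nearer to leaf. The axil libraries were not alike in this: the share was 43.4% in Axil 1, 33.3% in Axil 2 and 28.0% in Axil 3. When only root, flower and axil were ranked, flower had the highest mean for 2827 of the 5035 genes, root for 1130 and axil for 1078. Over all 34586 genes tested, that ranking gave 12361 for flower, 11262 for root and 10963 for axil.

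Over the 3463 genes lower in stem, the median was 2.08 FPKM in stem and 13.7 FPKM in leaf, and 2.76 FPKM in root, 3.21 FPKM in flower and 5.48 FPKM in axil. All 3 other tissues were nearer to stem for most of these genes, flower for 76.2%, root for 67.9% and axil for 63.0%. The axil libraries gave 67.7%, 63.7% and 62.4%. Leaf had the highest mean of all 5 tissues for 2384 of these genes (and root for 594), and stem had the highest mean for 2847 of the genes higher in stem (and flower for 1272). Over all 34586 genes tested, the highest mean was in leaf for 4877, stem for 6067, root for 9077 and flower for 7450. In either direction, axil and root sat nearer to the lower of stem and leaf for most called genes. The called genes were chosen on their stem and leaf values, so these positions are a description with no test.

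**Figure D5:**
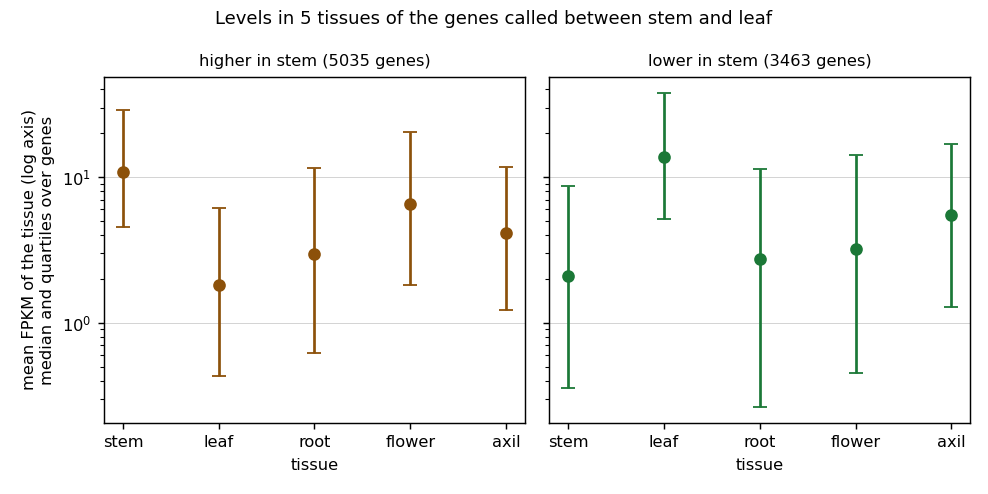
Median (point) and quartiles (bars) over genes of the mean FPKM per tissue, on a log axis, for the 5035 genes higher in stem (left) and the 3463 lower in stem (right). In the left panel flower, at 6.58 FPKM, is the tissue closest to stem, and in the right panel leaf, at 13.7 FPKM, stands above the other 4 tissues.

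Called genes were spread over all 17 chromosomes in similar shares. Genes higher in stem made up 12.4% (chromosome 1) to 16.7% (chromosome 12) of the genes tested on a chromosome, and genes lower in stem 8.94% (chromosome 9) to 11.2% (chromosome 7). The identifiers carry the chromosome number, and no coordinates are given. Within chromosomes, called genes had neighbours of the same direction more often than the tested genes as a whole, a difference that was not tested. After a gene higher in stem, the next tested identifier was also higher in stem in 990 of 4875 cases (20.3%), where 14.8% of the genes tested on chromosomes were. After a gene lower in stem, the next was lower in 526 of 3311 cases (15.9%), where 10.1% were. Runs of at least 3 neighbours called in the same direction numbered 165 for genes higher in stem, with 546 genes, and 84 for genes lower, with 275 genes. Neighbours that are near-identical copies would share reads, and whether these are such copies cannot be read from the table.

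The longest run of genes higher in stem held 6 neighbours and occurred 2 times. The run with the higher summed level lies on chromosome 5 and centres on 4 short genes of 423 to 474 nt. HannXRQ_Chr05g0136721 had 159, 224 and 187 FPKM in the stem libraries, against 8.36, 3.97 and 8.07 FPKM in the leaf libraries, a log2 difference of 4.66 with an SE of 0.35 (adjusted p = 4.36e-07 by limma). HannXRQ_Chr05g0136711 had 96.1, 80.2 and 103 FPKM in the stem libraries and 2.20, 1.61 and 3.17 FPKM in the leaf libraries, a log2 difference of 4.84 with an SE of 0.48 (adjusted p = 4.4e-06 by limma). Both were also abundant in root, at means of 110 and 119 FPKM, and low in flower, at 16.4 and 4.13 FPKM. Whether they are near-identical copies that share reads was not tested.

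The longest run of genes lower in stem held 5 neighbours and also occurred 2 times, and the one with the higher summed level lies on chromosome 15. HannXRQ_Chr15g0477451 (2071 nt) had 0.102, 0 and 0.0393 FPKM in the stem libraries, 4 reads in all, and 28.2, 45.1 and 12.8 FPKM in the leaf libraries. The leaf values ranged widely but lay far above every stem value, with a log2 difference of -4.66 with an SE of 0.38 (adjusted p = 8.49e-07 by limma). HannXRQ_Chr15g0477481 (5509 nt) had 0.819, 0.901 and 0.355 FPKM in the stem libraries and 31.8, 32.3 and 21.2 FPKM in the leaf libraries, a log2 difference of -4.11 with an SE of 0.31 (adjusted p = 5.08e-07 by limma). The second gene averaged 17.3 FPKM in axil, 6.17 FPKM in root and 2.36 FPKM in flower. The first averaged 2.58 FPKM in axil, 0.292 FPKM in root and 0.241 FPKM in flower.

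Gene lengths implied by the FPKM steps differed little between the sets. The median was 1419 nt for genes higher in stem, 1447 nt for genes lower in stem and 1539 nt for all genes tested.

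Identifiers other than placed chromosomal genes were counted by class, and no difference between classes was tested. Of 1383 tested identifiers of the type of Novel01914, which carry no chromosome number, 140 (10.1%) were higher in stem and 111 (8.03%) lower, against 14.8% and 10.1% of the 32871 placed genes. Novel01914 had 23.6, 12.4 and 40.9 FPKM in the stem libraries and 0.188, 2.67 and 0.159 FPKM in the leaf libraries (log2 difference 3.8 ± 0.42, SE; limma adjusted p = 1.1e-05). Its leaf mean of 1.01 FPKM was 0.174 FPKM without Leaf 2, and its flower mean was 95.8 FPKM. Novel00946 had 13.0, 29.0 and 4.06 FPKM in the stem libraries and 0.206, 0.0976 and 0.698 FPKM in the leaf libraries (log2 difference 3.30 ± 0.56, SE; limma adjusted p = 0.000371), with a stem mean of 15.4 FPKM that was 8.52 FPKM without Stem 2.

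Of the identifiers of that type lower in stem, the 2 with the largest difference were at or near 0 in the stem libraries. Novel01565 had a single read in the stem libraries, in Stem 2, and 48.5, 65.0 and 46.2 FPKM in the leaf libraries (log2 difference -5.68 ± 0.24, SE; limma adjusted p = 4.36e-09). Novel01366 had 0.0766, 0.265 and 0 FPKM in the stem libraries, 4 reads in all, and 43.0, 48.1 and 26.2 FPKM in the leaf libraries (log2 difference -5.13 ± 0.36, SE; limma adjusted p = 2.38e-07). Both stayed at or below 2.01 FPKM in the means of root, flower and axil.

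The remaining classes were small. Of 234 tested identifiers that begin with ENSRNA, 10 (4.27%) were higher in stem and 25 (10.7%) lower, and 9 and 22 without Leaf 2. Of these 234, 176 have an implied length under 200 nt, where few reads make a large FPKM. Of 72 tested identifiers numbered Chr00, which are not placed on a chromosome, 6 (8.33%) were higher in stem and 12 (16.7%) lower, and 8 and 5 without Leaf 2. That class took 0.0512% to 0.0648% of the reads in the stem libraries, and 0.0617%, 0.285% and 0.0626% in Leaf 1, 2 and 3.

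Identifiers marked MT and CP in place of a chromosome number were nearly absent from these libraries, which were made from mRNA captured by its poly(A) tail. Of 66 MT identifiers, 21 were tested and 0 were called by limma at these thresholds, with 0 at an unadjusted p under 0.05 and 0 called by limma-voom on the recovered reads. MT identifiers took 0.0282%, 0.0301% and 0.0695% of the reads in Stem 1, 2 and 3 and 0.0215%, 0.125% and 0.0216% in Leaf 1, 2 and 3, which overlap. Of 78 CP identifiers 5 were tested. All CP identifiers together had 88, 56 and 162 reads in the stem libraries and 441, 1783 and 666 reads in the leaf libraries, so each leaf library held more than any stem library. The 1 called CP identifier, HannXRQ_CPg0580401, was named because the count is so small. It had 0.715, 0.60 and 1.61 FPKM in the stem libraries and 3.50, 8.88 and 6.62 FPKM in the leaf libraries, a log2 difference of -1.85 with an SE of 0.43 (adjusted p = 0.0037 by limma).

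As a counterpart to the called genes, the 2 most abundant genes with a log2 difference under 0.1 in size were taken. HannXRQ_Chr06g0178941 on chromosome 6 had 684, 1119 and 1322 FPKM in the stem libraries and 898, 1341 and 890 FPKM in the leaf libraries, a log2 difference of -0.03 with a 95% interval of -1.06 to 1.00. It was at 0.0595 FPKM in root and 891 FPKM in flower. HannXRQ_Chr02g0052221 on chromosome 2 had 503, 2629 and 659 FPKM in the stem libraries and 720, 1395 and 822 FPKM in the leaf libraries, a log2 difference of 0.03 with an interval of -1.12 to 1.18. The tissues overlapped in both, but the intervals are wide, and without Stem 2 the stem mean of the second gene was 581 FPKM in place of 1264 FPKM.

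NAC83 (HannXRQ_Chr17g0568801), the single gene that the table names, encodes a transcription factor of the NAC family. It had 1.08, 4.13 and 1.87 FPKM in the stem libraries and 0.770, 0.877 and 1.24 FPKM in the leaf libraries, which overlap. Stem and leaf are the tissues where it was lowest, and its stem minus leaf difference of 0.68 (95% interval -0.25 to 1.61) did not pass (limma adjusted p = 0.228). Its stem mean of 2.36 FPKM was 1.48 FPKM without Stem 2.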

How the data were processed

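RNA was sequenced from 5 sunflower tissues with 3 libraries each, and the labelled tissue gave the groups. The authors deposited FPKM values for each library, with mean FPKM per tissue beside them. The submitters' processing notes name HTSeq 0.6.1. The aligner, build and annotation were not given there or in the files. Another 15 unnamed columns with numbers were not used.

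Whole reads and library totals were solved from the FPKM steps of the 63411 rows, of which 12844 were 0 in all libraries. A read number was whole within 1e-06 plus 5e-08 per read. The smallest whole solution was taken, so a gene with reads in a single library was given 1 read. Gene lengths were kept for genes with reads in 3 or more libraries. Implied lengths were whole within 0.05 nt in 99.8% of 46035 genes that had reads in 3 or more libraries, where chance gives 10%. The library total behind these lengths was chosen to make the lengths of a subset of the genes whole. The 10% does not allow for that choice. Genes with at least 1 FPKM in 3 libraries were fitted as log2(FPKM + 1) with limma 3.58.1 (eBayes with trend, R 4.3.3) on all 15 libraries, with the contrast stem minus leaf. The fit and the read recovery were tested on simulated data. Other steps used Python 3.11.15, pandas 2.3.3, SciPy 1.17.1 and matplotlib 3.10.9.

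Named genes were the 2 in each direction with the largest difference, level and statistic, the most abundant nearly confined to a tissue, identifiers of the type of Novel01914 and the longest runs of neighbours (ties broken by summed level), all with no overlap, at least 5 FPKM and at least 200 nt, which 0 ENSRNA identifiers met. NAC83 and the 2 most abundant genes with a log2 difference under 0.1 were added without these limits. The lists of pathway and marker genes matched 0 identifiers. The members, rules and lists were chosen with earlier results of these data known. No sequences are printed, since no file used here pairs one with these identifiers.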

Additional observations from a re-analysis of the deposited data

How the results depend on the processing

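Of 40 recomputed counts of genes higher or lower in stem over 20 settings, 34 stayed within 1.5 times. The counts higher and lower moved to 2407 and 1837 with a pseudocount of 5, 9058 and 5649 with adjusted p alone, and 1719 and 1301 at a minimum size of 2 on the log2 scale, as thresholds do by construction. Leaving out 1 library gave 4597 to 5522 higher and 3265 to 3603 lower. Single runs kept 4405 to 4769 of the higher calls and 3083 to 3236 of the lower ones, 3827 (76.0%) and 2675 (77.2%) were kept in all 6, and 0 called genes changed sign. Genes nearly confined to stem numbered 206 to 400 and to leaf 208 to 326 when 1 library was left out (400 and 208 without Leaf 2). Quantile normalization gave 19 genes at 1000 FPKM or more higher in stem; the cause was not tested. The labels do not say whether same-numbered libraries belong together, and the fit did not pair them. Deviations of same-numbered stem and leaf libraries from their tissue means correlated at -0.0373, -0.337 and -0.212. These values cannot settle whether the libraries are paired. A replicate block gave 4993 higher and 3440 lower.

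Among the 30 named genes, 519 of 539 recomputed differences kept their call and direction. HannXRQ_Chr02g0052221 turned to -0.17 with median-of-ratios scaling and ran from -0.70 to 0.49 when 1 library was left out. HannXRQ_Chr06g0178941 turned to 0.70 with quantile normalization and ran from -0.23 to 0.25 when 1 library was left out. HannXRQ_CPg0580401 stood at -0.90 with a pseudocount of 5, short of the threshold. Recounts for abundant genes and identifier classes, and the count of kept calls, were chosen after the data were seen.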

Other observations

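On chromosome 1, a short stretch of numbering held very abundant genes of both directions. It was chosen after its values were seen. Next to HannXRQ_Chr01g0006791, described for its stem level, HannXRQ_Chr01g0006781 had 393, 1223 and 451 FPKM in Stem 1, 2 and 3 and 0.373, 2.04 and 1.19 FPKM in Leaf 1, 2 and 3. Its log2 difference was 8.17 ± 0.95 (SE; limma adjusted p = 1.69e-05), with means of 422 FPKM in stem without Stem 2 and 0.781 FPKM in leaf without Leaf 2. In both genes Stem 2 was the highest stem library and Leaf 2 the highest leaf library. Their lengths are 861 and 840 nt, and whether they are near-identical copies that share reads was not tested.

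A few numbers further on, the direction was the opposite. HannXRQ_Chr01g0006821 had 170, 301 and 252 FPKM in the stem libraries and 1294, 1614 and 1388 FPKM in the leaf libraries, a log2 difference of -2.60 with an SE of 0.37 (adjusted p = 8.51e-05 by limma). Its neighbour HannXRQ_Chr01g0006831 had 156, 230 and 232 FPKM in the stem libraries and 965, 1015 and 1111 FPKM in the leaf libraries, a log2 difference of -2.34 with an SE of 0.18 (adjusted p = 6.22e-07 by limma). Both are among the 55 abundant genes lower in stem, with root means of 1.85 and 0.261 FPKM and flower means of 287 and 261 FPKM.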
